A study of Mus musculus with 14 samples.

Results

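The 8 genes described here, Fgf4, Fgfr1, Spry2, Spry4, Spred1, Dusp6, Etv4 and Etv5, form the core of fibroblast growth factor (FGF) signalling through the kinase ERK in mouse embryonic stem cells (mESCs). They were taken by gene symbol from the 52459 genes in the count tables, as a list set up with earlier results of these data known, and all 8 were expressed. The study compared wild type (WT) E14Tg2a mESCs with the METTL14 R255K line, in which 1 arginine of METTL14, a subunit of the enzyme that writes N6-methyladenosine (m6A) on RNA, was changed to lysine by CRISPR-Cas9 knock-in followed by isolation of single colonies, so that the mutant may stand for 1 clone. Both lines were grown on gelatin in serum with LIF. For RNA lifetimes both were given 5 µg/ml actinomycin D, which blocks transcription, for 0, 4 or 8 h, and polyadenylated RNA of 1 library per genotype and time was sequenced. For m6A, RNA fragments bound by an m6A antibody were sequenced beside their input, with 2 IP and 2 input libraries per genotype, and 1 list of enriched regions (peaks) per genotype was used here.

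In mESCs, FGF4 is secreted by the cells themselves and binds FGFR1, which passes the signal through RAS, RAF and MEK to ERK. ERK activity primes the cells for differentiation, and it switches on its own brakes. Sprouty and SPRED proteins act upstream near RAS and RAF, and DUSP6 removes phosphate from ERK itself. Etv4 and Etv5, which encode ETS-family transcription factors, are also turned on by the pathway. m6A on a transcript is bound by reader proteins, some of which hasten its decay.

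The 6 actinomycin D libraries held 13812160 to 18813640 counts summed over genes. Levels are given as FPKM, counts scaled to exon length and to the summed counts of the library, so that a level is relative to the rest of its library. No genotype had a second library at any time, and no test between genotypes was made. The intervals in brackets are 95% intervals for counting error only, and they leave out the variation between cultures, clones and library preparations. All 8 embryonic stem cell markers examined were present at 0 h, the lowest being Esrrb at 173 FPKM in WT and 80.4 in R255K. The summed level of 4 markers of epiblast-like cells was 50.8 FPKM in WT and 133 in R255K, most of it Dnmt3b at 43.2 and 102 FPKM. Pou3f1 stood at 5.56 and 22.4 FPKM, Otx2 at 1.60 and 8.19 FPKM, and Fgf5 at 0.413 and 0.920 FPKM. Of 5 primitive endoderm markers none was at 0, with sums of 6.77 and 7.38 FPKM. Of 6 fibroblast markers, 3 were at 0 in WT and 2 in R255K, with sums of 1.64 and 5.94 FPKM. The part of these marker differences in the results below was not tested. Mettl14 itself, whose sequence but not dose was edited, was counted 681 times in WT and 299 times in R255K at 0 h.

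The sequences at the m6A peaks come first, because the peaks differ between the genotypes. They were read from the mm10 assembly, on the strand of the gene, around the match nearest the peak summit to GGAC, the core of the preferred METTL3-METTL14 sequence, given in capitals. Where no GGAC lay within 100 bp of the summit, the nearest match to the wider consensus DRACH is in capitals. The first pair had a higher fold enrichment in R255K than in WT, Spred1 had no GGAC near its summit, and the last pair belongs to WT peaks that no R255K peak overlapped.
Fgf4, 3′ UTR, chr7:144863467-144863495, plus strand: aatcatcttcttGGACctaccggatagga
Spry2, coding sequence, chr14:105893182-105893242, minus strand: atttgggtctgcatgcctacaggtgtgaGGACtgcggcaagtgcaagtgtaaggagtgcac
Spred1, coding sequence, chr2:117177485-117177545, plus strand: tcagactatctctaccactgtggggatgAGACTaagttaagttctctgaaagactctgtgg
Dusp6, coding sequence, chr10:99266167-99266227, plus strand: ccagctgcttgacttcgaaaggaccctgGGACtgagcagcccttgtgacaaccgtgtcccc
Etv5, 3′ UTR, chr16:22381922-22381950, minus strand: tgactgagcgtgGGACactccacagcctt
A match to these letters is a description of the window and does not show which base carried the mark.

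Before transcription was blocked, 6 of the 8 genes were lower in R255K than in WT, and the inhibitors Spred1, Dusp6 and Spry2 lay furthest below. Spred1 was the only 1 of the 8 under 1/2 of its WT level, against 9.74% of the 11847 genes tested, that is, those with a mean of at least 1 FPKM at 0 h. None was over 2 times WT, against 10% of all genes tested. The median ratio of R255K to WT over the 8 genes was 0.796, beside 1.04 over all genes. It lay between the lower and upper quartiles of all genes tested, 0.740 and 1.40. The share of all genes that were lower in R255K was not counted, so the 6 of 8 has no background. The 6 include Fgf4, which was close to WT at 0.948.

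Fgf4, the ligand, stood at 95.1 FPKM in WT and 90.2 in R255K at 0 h, a ratio of 0.948 (0.911 to 0.987). Fgfr1, its receptor, was the lowest of the 8 in WT at 11.9 FPKM and stood at 14.02 in R255K, a ratio of 1.18 (1.11 to 1.25). The ligand and the receptor thus lay close to their WT levels, on either side.

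Among the inhibitors, Spred1, which holds back RAF activation at the membrane, stood at 24.1 FPKM in WT and 9.17 in R255K, a ratio of 0.381 (0.354 to 0.410). Dusp6, the ERK phosphatase, stood at 65.1 and 32.6 FPKM, a ratio of 0.500 (0.471 to 0.531) that lies just above 1/2. Spry2, a Sprouty protein, stood at 80.4 and 42.6 FPKM, a ratio of 0.530 (0.496 to 0.565). Spry4 was nearer to WT. It stood at 83.4 and 67.2 FPKM, a ratio of 0.806 (0.776 to 0.836). All 4 were lower in R255K under 5 of 6 ways of scaling the libraries, and the direction was reversed with Gapdh, itself counted between 242 and 2357 times per library, as the reference, under which Spred1 had a ratio of 1.03. Spred1, whose exons have a low GC content of 40.6%, came to 0.607 after a correction for GC content and was then no longer under 1/2 of WT.

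The Etv genes went different ways. Etv5, the most abundant of the 8 at 142 FPKM in WT, stood at 112 in R255K, a ratio of 0.787 (0.763 to 0.811). Etv4 stood at 60.6 and 71.6 FPKM, a ratio of 1.18 (1.13 to 1.24), which became 0.949 after a correction for exon GC content. Etv4 lies on chromosome 11, where the median ratio over 982 genes was 1.49, and the part of the chromosome in its level was not tested. No such median was taken for the chromosomes of the other members.

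In order of level at 0 h, WT ran Etv5, Fgf4, Spry4, Spry2, Dusp6, Etv4, Spred1, Fgfr1, and only Spry4 and Spry2 were not apart beyond counting error. R255K ran Etv5, Fgf4, Etv4, Spry4, Spry2, Dusp6, Fgfr1, Spred1. Dusp6 therefore stood above Etv4 in WT and below it in R255K, and Spred1 stood above Fgfr1 in WT and below it in R255K.

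**Figure D1:**
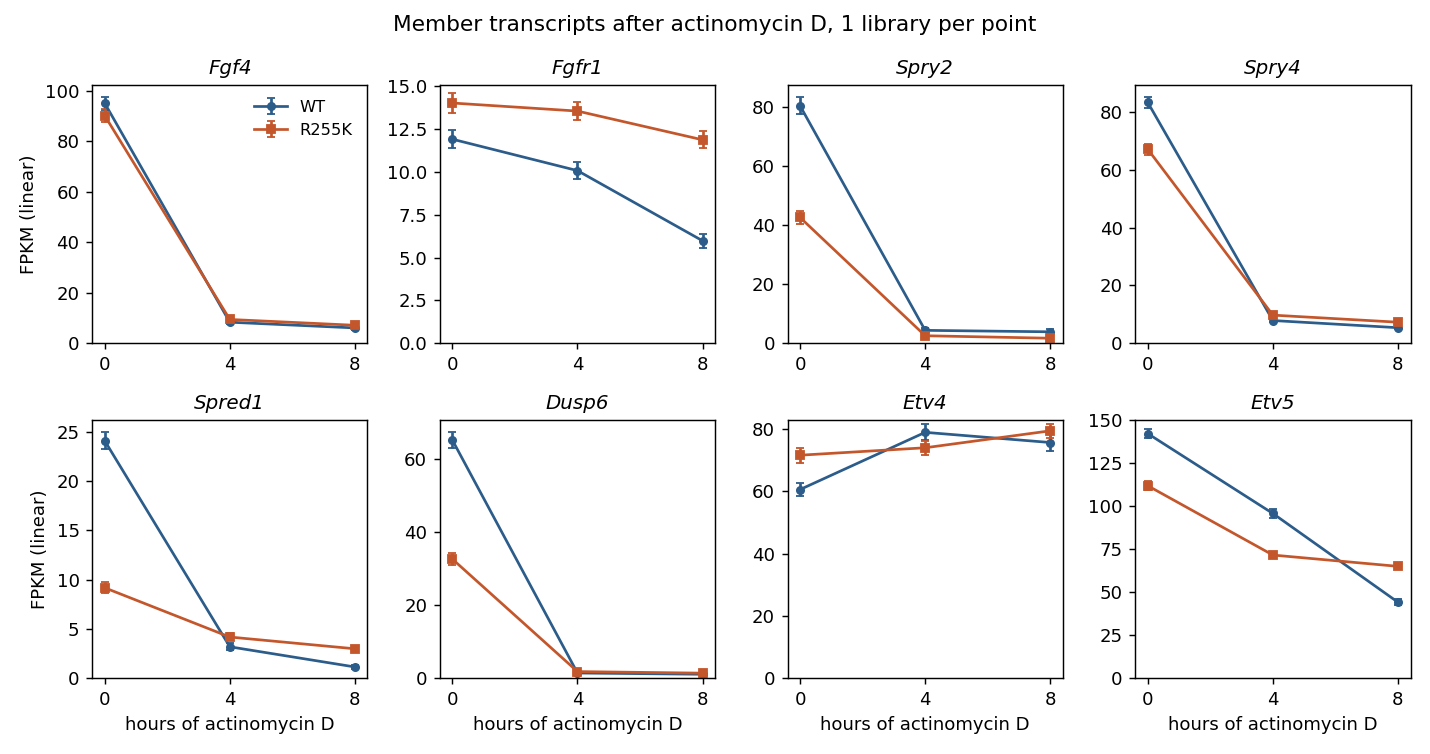
Level of each gene in FPKM (linear vertical axis from 0) against hours of actinomycin D in WT (circles) and R255K (squares), with 1 library per point and bars for the 95% Poisson interval. Fgf4, Spry2, Spry4, Spred1 and Dusp6 drop steeply by 4 h in both genotypes, and Etv4 does not drop below its 0 h level. The WT and R255K lines cross for all genes but Fgfr1 and Spry2.

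After actinomycin D the same 5 genes had under 50% of their 0 h level left at 4 h in both genotypes. These short-lived transcripts were Fgf4, Spry2, Spry4, Spred1 and Dusp6. Among all genes tested, 27.7% had so little left in WT and 13% in R255K. The receptor and both Etv genes kept more. Fgfr1 and Etv5 still had less left in WT than the median of all genes tested, which was 88.9% at 4 h and 65.8% at 8 h.

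Dusp6 had the least left in WT, while in R255K it and Spry2 were not apart at 4 h beyond counting error. The WT libraries at 0, 4 and 8 h gave it 3552, 67 and 47 counts, and the R255K libraries 1595, 106 and 82. Its share left at 4 h was 2.19% (1.70 to 2.79) in WT and 5.59% (4.55 to 6.81) in R255K. At 8 h the shares were 1.67% and 4.27%. Both shares were thus about as far apart at 8 h as at 4 h, with ratios of 2.56 (1.78 to 3.68) and 2.55 (1.87 to 3.48), and nearly all of the transcript had gone by 4 h.

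Spry2 gave 2920, 136 and 111 counts over the WT time course, against 1388, 98 and 66 over that of R255K. Its share left was 5.42% in WT and 5.94% in R255K at 4 h, and 4.80% and 3.95% at 8 h. The genotypes could not be told apart at this depth, since the intervals of both ratios, 0.839 to 1.43 at 4 h and 0.604 to 1.13 at 8 h, hold 1.

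Spry4 gave 6670, 540 and 340 counts over the WT time course, against 4823, 830 and 628 over that of R255K. Its share left at 4 h was 9.42% in WT and 14.5% in R255K, a ratio of 1.54 (1.37 to 1.72), and at 8 h the ratio was 1.68 (1.47 to 1.93). Fgf4 gave 5296, 398 and 267 counts over the WT time course, against 4507, 559 and 427 over that of R255K. Its shares differed less than those of Spry4, at 8.74% and 10.4% after 4 h, a ratio of 1.19 (1.04 to 1.36), and at 8 h the ratio was 1.24 (1.06 to 1.45) but 0.881 with DESeq2 size factors.

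Spred1 showed the widest gap of the 8 genes at 8 h. It gave 2846, 324 and 107 counts over the WT time course, against 973, 527 and 381 over that of R255K. Its share left was 13.2% (11.8 to 14.9) in WT and 45.6% (40.9 to 50.7) in R255K at 4 h. At 8 h it was 4.74% and 32.6%. The ratio of R255K to WT went from 3.44 (2.94 to 4.02) at 4 h to 6.86 (5.47 to 8.61) at 8 h. The 8 h ratio was above 1 under all 6 scalings, between 3.70 and 9.84, whereas the 4 h ratio was 0.487 with Gapdh as the reference and 1.96 after the GC correction.

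A comparison of 2 genes in the same libraries does not depend on a factor that is shared by all genes of a library. Set against Spry2, Spred1 had a ratio of shares left that was 3.14 times higher (2.30 to 4.28) at 4 h and 8.33 times higher (5.67 to 12.2) at 8 h. Against Spry2, the ratio of Dusp6 was 2.32 times higher (1.54 to 3.50) at 4 h. Against Dusp6, the ratio of Spred1 was 1.35 times higher (0.953 to 1.91) at 4 h, which holds 1, and 2.68 times higher (1.75 to 4.11) at 8 h. A GC correction differs between genes and does not cancel within a library. With it, Spred1 over Spry2 came to 2.10 at 4 h and 5.37 at 8 h, and Spred1 over Dusp6 to 0.811 at 4 h and 1.58 at 8 h.

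Of the genes that kept more, Etv5 gave 10164, 5885 and 2502 counts over the WT time course, against 7178, 5462 and 5018 over that of R255K. At 4 h its shares were close, 67.3% in WT and 64.0% in R255K. They parted later, with 31.1% in WT and 58.1% in R255K at 8 h. From 4 to 8 h, Etv5 kept 46.1% (44.0 to 48.3) in WT and 90.8% (87.4 to 94.4) in R255K.

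Fgfr1 gave 2049, 1490 and 815 counts over the WT time course, against 2165, 2488 and 2205 over that of R255K. Its share left was 84.6% and 96.7% at 4 h, and 50.2% and 84.7% at 8 h. As with Etv5, the gap was wider at 8 h, where the ratio was 1.69 (1.53 to 1.87). Etv4 gave 3277, 3671 and 3244 counts over the WT time course, against 3476, 4271 and 4638 over that of R255K. Its share did not drop below 100% in either genotype, at 130% and 103% after 4 h and 125% and 111% after 8 h, which means only that it was lost no faster than the library as a whole. With ribosomal protein genes as the reference its shares at 8 h were below 100% in both genotypes. Set against Etv4, the ratio of shares left of Etv5 at 8 h was 2.11 times higher (1.93 to 2.30).

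In all, 3 of the 8 genes had a share left over 1.5 times higher in R255K at 4 h, beside 31.9% of all genes, and 5 of 8 at 8 h, beside 44.5%. With TMM factors or DESeq2 size factors these counts were 2 and 2, Spred1 and Dusp6 at both times. The median ratio of the 8 genes was 1.17 at 4 h and 1.69 at 8 h, and that of all genes 1.13 and 1.33. With Gapdh as the reference all 8 ratios at 4 h were below 1, from 0.112 for Etv4 to 0.487 for Spred1.

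**Figure D2:**
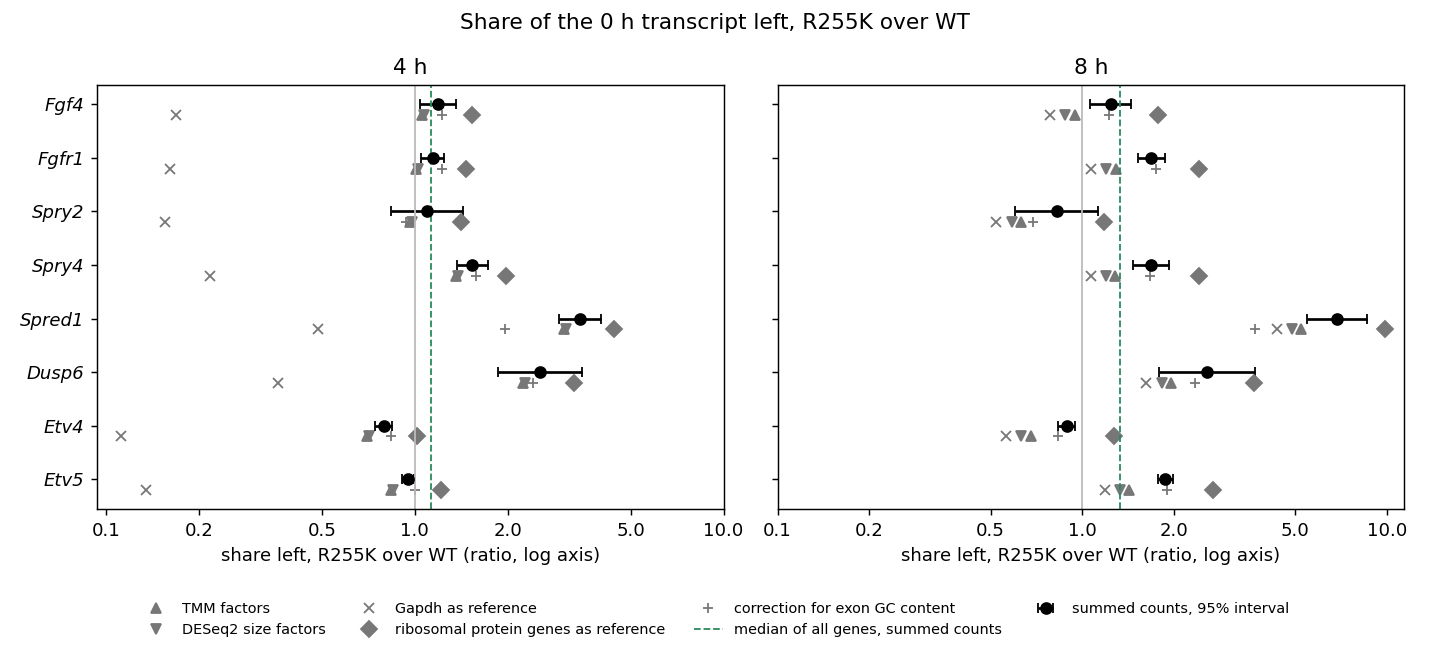
Share of the 0 h level left in R255K divided by that in WT, at 4 h and 8 h (log axes), with black points for scaling by summed counts (bars, 95% counting interval), grey symbols for the other scalings and a dashed line for the median of all genes. Spred1 is furthest to the right at 8 h under every scaling, and the Gapdh crosses lie left of 1 for all 8 genes at 4 h.

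Half-lives, from the mean of the decay rates to 4 and 8 h, could be given for 7 of the 8 genes, since Etv4 showed no net decay with the summed counts as the scale. With ribosomal protein genes as the reference Etv4 did decay, but the share left at 8 h was still 0.753 in WT and 0.958 in R255K. The half-life ratio of 3.45 was thus extrapolated far past the last time point. In WT the half-lives were 0.945 h for Dusp6, 1.25 h for Spry2, 1.45 h for Fgf4 and 1.48 h for Spry4. They were 1.56 h for Spred1, 5.66 h for Etv5 and 10.8 h for Fgfr1. From 4 to 8 h, WT kept 76.1% of Dusp6, 88.5% of Spry2, 72.8% of Fgf4, 68.3% of Spry4 and 35.8% of Spred1. Each kept more than from 0 to 4 h, so that 1 constant rate did not describe these 5 genes. Over the 5504 genes with a half-life in both genotypes, WT had a median of 3.48 h and R255K one of 8.08 h, so the 5 short-lived members lay below it.

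Spred1 had a half-life of 4.12 h in R255K, 2.63 times that in WT (2.36 to 2.94). With Gapdh as the reference that ratio was 1.01. Fgfr1 had 47.3 h, 4.37 times (2.21 to 8.64), a value extrapolated far past the last time point that became 18.7 after the GC correction. These 2 of 7 were past a ratio of 1.5, beside 68.8% of all genes with a half-life. None of the 7 was under 1/1.5, beside 5.78% of all genes. Under DESeq2 size factors and Gapdh as the reference Fgfr1 had no half-life. For the others the ratio was 1.37 (Etv5), 1.32 (Dusp6), 1.23 (Spry4), 1.08 (Fgf4) and 0.999 (Spry2). From 4 to 8 h alone, the short-lived genes had ratios of 0.299 (Spry2), 1.02 (Dusp6), 1.13 (Fgf4), 1.31 (Spry4) and 3.06 (Spred1). Those of Spry2 and Dusp6 rest on few late counts. The share that WT kept from 4 to 8 h had an interval of 68.3 to 115% for Spry2 and 51.3 to 112% for Dusp6. Both intervals include no loss at all, so these 2 ratios give no direction. The Etv5 value also rested on the time used, at 0.886 from the 4 h libraries alone and 2.15 from the 8 h libraries alone. It was 0.967 with DESeq2 size factors and 0.121 with Gapdh. The median ratio was 1.32, lower than the 1.98 of all genes, and with Gapdh as the reference both medians were below 1, at 0.649 and 0.549.

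For 5 genes the R255K to WT ratio of levels lay below 1 at 0 h and above 1 at 8 h, beside 26% of all genes tested. Spred1 was at 0.381 of WT before actinomycin D and at 2.61 (2.10 to 3.27) after 8 h. Etv5 went from 0.787 to 1.47 (1.40 to 1.55), Spry4 from 0.806 to 1.36 (1.19 to 1.55), Fgf4 from 0.948 to 1.17 (1.01 to 1.37) and Dusp6 from 0.500 to 1.28 (0.884 to 1.87), whose interval holds 1. Spry2 stayed below, at 0.437 (0.317 to 0.597). With DESeq2 size factors the 8 h ratio was above 1 for Spred1 (1.72) and below 1 for Etv5 (0.969), Spry4 (0.892), Dusp6 (0.843) and Fgf4 (0.773), and with Gapdh as the reference Spred1 was above 1 at 0 h too.

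The m6A peak lists give the peaks that were called on these transcripts in each genotype. Exons of 7 of the 8 genes held 11 WT peaks, Etv4 having none, while 57.5% of all genes tested held at least 1. Of the 11, 2 were overlapped by no R255K peak, beside 47.9% of the 13870 exonic WT peaks. The peaks of these genes were strong by −log10 q but not by fold enrichment. The latter ran from 2.23 to 8.96, beside a median of 6.17 over exonic WT peaks. Their median −log10 q was 73.1, and of the exonic WT peaks at least that strong 2.51% were without an R255K peak, against 32.9% of those at least as strong as the weakest of the 11. The depth behind the lists is unknown, and no peak has a value per replicate, so no error can be given. Levels of the transcripts differed too, with Spred1 at 0.381 and Dusp6 at 0.500 of WT at 0 h of actinomycin D. The part of the transcript level in the peak calls was not tested.

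The 2 peaks without a counterpart were the weakest of the 11 by fold enrichment, which is the IP signal at the summit over the local background. That of Dusp6, at chr10:99266090-99266630 in the last part of the coding sequence, had 2.81, and that of Etv5, at chr16:22381759-22381998 in the 3′ UTR, had 2.23. Each of these genes kept a second and stronger peak. The kept Dusp6 peak went from 4.58 in WT to 3.35 in R255K, and the kept Etv5 peak from 4.59 to 2.71. The Etv5 summits were not at the same place, lying 160 bp past the stop codon in WT and 474 bp past it in R255K.

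Of the 9 kept peaks, 7 had a lower fold enrichment in R255K, beside 70.6% of all kept exonic peaks. The 5′ UTR peak of Fgfr1 went from 7.49 to 5.10, its peak at the stop codon from 4.92 to 3.80, and the 5′ UTR peak of Spry2 from 4.25 to 3.14. The Spred1 peak, the highest of the WT peaks by fold enrichment at 8.96, went to 7.70 while its width went from 1092 to 496 bp. The Spry4 peak was the least covered of the kept peaks. It spanned 2046 bp in WT at 4.18, with its summit in coding sequence. In R255K 2 peaks of 202 and 241 bp covered 21.7% of it, the higher at 3.90, both with summits in the 3′ UTR. Neither reached the WT summit, so the Spry4 peak counts as kept by overlap only and its fold enrichments belong to different sites.

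The remaining 2 went the other way, Fgf4 from 7.35 to 10.1 and the coding peak of Spry2 from 6.86 to 9.78. Their sequences are the first pair printed above. R255K had 12 peaks on these exons, 2 of them without a WT peak, beside 13.1% of exonic R255K peaks. These lay near the end of the Fgf4 3′ UTR, at chr7:144865016-144865245 with 4.50, and in Etv5, at chr16:22401837-22402059 with 2.28. Summed over the 7 genes, peaks covered 9231 bp in WT and 5850 bp in R255K, while exonic peaks of all genes covered 7409276 and 3812904 bp.

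**Figure D3:**
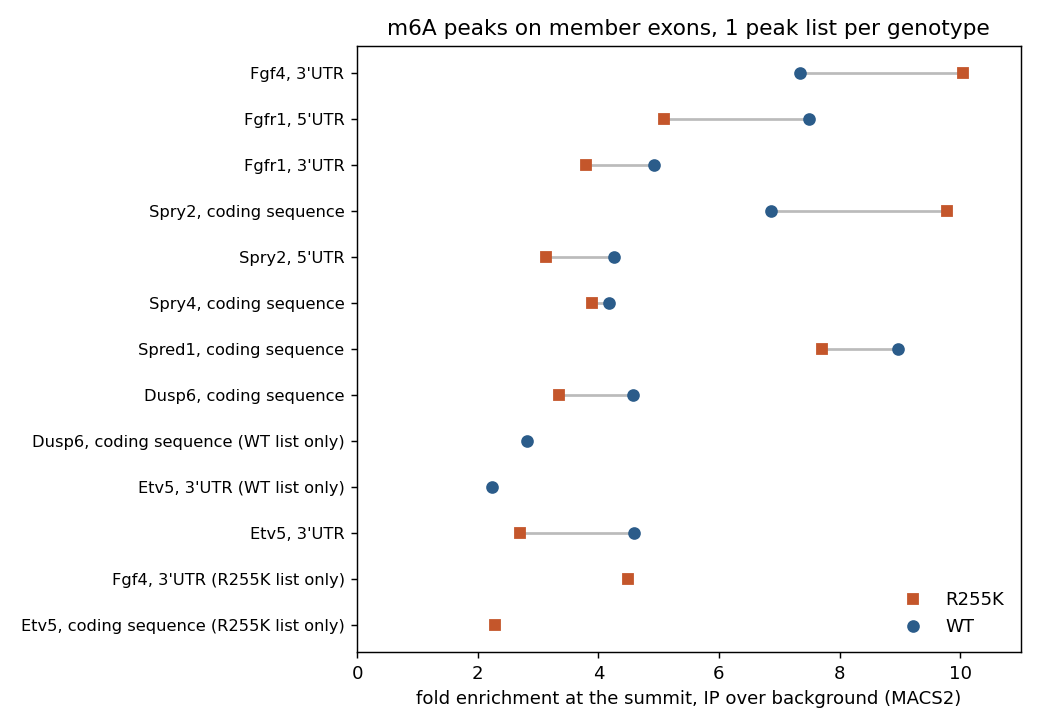
Fold enrichment at the summit (horizontal axis from 0) of each m6A peak on exons of the 8 genes, in WT (circles) and R255K (squares), with lines joining overlapping peaks. Of the 9 joined pairs, 7 have the square to the left, while Fgf4 and the coding peak of Spry2 have it to the right.

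Summits of the 11 WT peaks lay in coding sequence (5), the 3′ UTR (4) and the 5′ UTR (2), and 4 lay within 200 bp of the stop codon. These positions were not counted over all exonic WT peaks, so they describe the 11 only. GGAC was found on the gene's strand within 100 bp of 9 of the 11 summits, the exceptions being Spred1 and the main Etv5 peak, and near 79.0% of 13095 exonic WT summits. Both exceptions had matches to DRACH, as did 99.2% of the exonic WT summits.

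The 3′ UTRs were also searched on the gene's strand for ATTTA, the core of AU-rich elements, which are known from many short-lived transcripts. Spred1 had 12 in a 3′ UTR of 4330 bp, Spry4 had 7, Fgf4 had 6, Etv5 had 5, Fgfr1 had 3, Spry2 had 2 and Dusp6 had 1. Etv4 had none. The median over 10281 genes was 1, in 3′ UTRs with a median of 984 bp, and 66.6% had at least 1. Per kilobase, Spred1 had 2.77, Fgf4 2.61, Spry2 2.34, Etv5 2.31, Spry4 1.97, Fgfr1 1.67 and Dusp6 0.841, beside a median of 1.21 over all genes. Dusp6, with the least left of the 8 in WT, thus lay below that median.

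By profile over the 6 libraries relative to WT at 0 h, the nearest of 7145 other genes to each member was Peak1 for Spred1 (a distance of 0.20 on the log2 scale), Gbx2 for Dusp6 (0.36), Epc1 for both Fgf4 (0.32) and Spry4 (0.23), Fbxo5 for Spry2 (0.69), Psmd7 for Fgfr1 (0.08), Tmbim6 for Etv4 (0.10) and Dffb for Etv5 (0.12). Peak1 gave 2058, 232 and 72 counts over the WT time course, against 631, 364 and 269 over that of R255K, lower at 0 h and with more left later, as Spred1 did.

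Of 54 other genes of the pathway in the count tables, 45 were expressed. At 0 h, 4 were under 1/2 of WT, beside 9.74% of all genes, and 8 over 2 times, beside 10%, and the median ratio was 0.985. Of 30 with a half-life in both genotypes, 16 had a ratio over 1.5, beside 68.8% of all genes, and none was under 1/1.5, beside 5.78%. Their median was 1.64, beside 1.98 over all genes.

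The 10 other feedback inhibitors had a median ratio of 0.884 at 0 h. Rasa1, a RAS GTPase-activating protein, was at 0.417 (0.362 to 0.479) of WT, and Dusp5, a nuclear ERK phosphatase, was at 3.02 (2.56 to 3.59). Of the 10, 8 had a half-life in both genotypes, and 5 of those had a ratio over 1.5, beside 68.8% of all genes. For the nearest relatives of the members, the ratio was 1.76 (1.65 to 1.88) for Spred2, 2.00 (1.74 to 2.29) for Dusp4 and 1.34 (1.12 to 1.61) for Spry1. At 0 h, Spred2 was at 0.985 of WT beside 0.381 for Spred1, and Dusp4 at 1.86 beside 0.500 for Dusp6. Nf1 had a ratio of 41.6 whose interval, 0.524 to 3301, gives it no direction.

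Ligands other than Fgf4 were on both sides. Fgf15 was at 4.34 (3.61 to 5.24) of WT and Fgf3 at 2.56 (1.88 to 3.51), and Fgf1 was at 0.340 (0.249 to 0.459). At 0 h, Fgf5 was counted 18 times in WT and 36 times in R255K, under the expression minimum. Of the receptors, only Fgfrl1, which lacks a kinase domain, passed it, with a half-life ratio of 3.27 (1.94 to 5.50), and Fgfr2, under it, was counted 115 times in WT and 208 times in R255K. In the cascade below them, the half-life ratio was 3.25 (2.53 to 4.19) for the adaptor Gab1 and 2.54 (1.79 to 3.61) for Map2k1, which encodes MEK1. In R255K the half-lives were 12.2 h for Fgfrl1, 30.1 h for Gab1 and 23.9 h for Map2k1, all extrapolated past the last time point. Values of pathway genes other than the 8 members were not recomputed under the other scalings.

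Among nuclear targets, Etv1, the third member of the Etv4 and Etv5 family, was at 0.257 (0.221 to 0.299) of WT and Elk3 at 0.298 (0.227 to 0.386). Egr1, an immediate early gene that ERK switches on, was at 8.61 (7.16 to 10.4), with 130 counts in WT and 1004 in R255K. Egr1 and Dusp5 were therefore above WT at 0 h in the same libraries in which Spred1, Dusp6 and Spry2 were below it. They do not stand for their classes, since Dusp5 was named for the size of its ratio. The median ratio was 0.716 over the 10 nuclear targets and effectors tested and 0.884 over the 10 other feedback inhibitors.

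**Figure D4:**
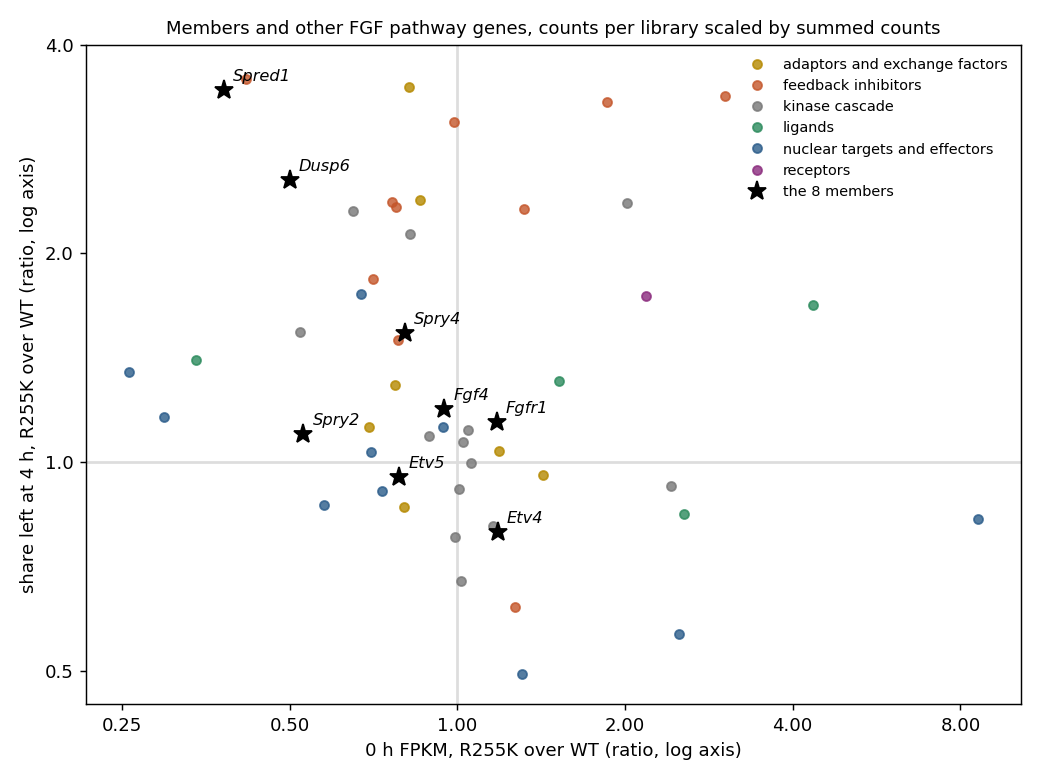
R255K to WT ratio at 0 h (horizontal, log axis) against the R255K to WT ratio of the share left at 4 h (vertical, log axis) for the 8 members (stars) and 45 other pathway genes (dots, coloured by class), 1 library per value. Spred1 and Dusp6 lie at the upper left, with ratios of 0.381 and 0.500 at 0 h and 3.44 and 2.55 at 4 h. Both axes use the 0 h libraries, which by itself ties low values on one to high values on the other.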

How the data were processed

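The 6 actinomycin D libraries were deposited as 2 tables of raw counts per gene. Per the submitters' notes and the methods, the authors filtered out rRNA with Bowtie2 2.2.6, mapped what remained to mm10 by HISAT2 and used Picard 2.16.0 and SAMtools 0.1.09 to select uniquely mapped reads. The counting program and annotation are not given in the sources used here. The authors called peaks against input with MACS2 (--nomodel), and the deposited lists hold fold enrichment, −log10 q and a display score, with 1 list per genotype. How the 2 IP libraries were combined is not given.

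Counts were converted to FPKM with the exon lengths in the tables and summed counts. The decay rate was the mean of those to 4 and 8 h, with counts under 3 at these times set to 3. Share intervals were exact (Clopper-Pearson) and those of half-lives used the delta method. The calculation was tested on simulated data in which each gene decayed at 1 constant rate per genotype. Peaks overlapping by at least 1 bp were matched. Regions follow GENCODE vM21. The other scalings were TMM (edgeR 4.0.16), DESeq2 1.42.0 size factors, Gapdh, 85 ribosomal protein genes and a lowess correction for exon GC content (span 0.3). No spike-in is stated. No count test was run, as there was 1 library per group.

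Members and lists were chosen with earlier results of these data known. Genes named are the members, the gene with the nearest profile to each (among genes with at least 5 FPKM at 0 h and 20 counts in each library), and pathway genes past a ratio of 2 or 1/2 at 0 h or of 1.5 or 1/1.5 in half-life, at most 4 of each by size, plus Dusp4, Spry1, Spred2, Fgfr2, Fgf5 and Egr1. The exons of Fgfr1 overlap the antisense gene Gm16159, which had at most 4 counts in a library.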

Additional observations from a re-analysis of the deposited data

Results flagged for a closer look

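The R255K to WT ratio of levels lay on the other side of 1 after actinomycin D than at 0 h for several genes, and the difference between times was not tested, as each ratio rests on 2 libraries. At 4 h the ratio was 1.13 for Fgf4, 1.24 for Spry4, 1.31 for Spred1 and 1.27 for Dusp6, all below 1 at 0 h, and 0.937 for Etv4, above 1 at 0 h. At 8 h it was 1.17 for Fgf4, 1.36 for Spry4, 2.61 for Spred1, 1.28 for Dusp6 and 1.47 for Etv5. The 4 h intervals of Fgf4 and Dusp6 and the 8 h interval of Dusp6 hold 1. Ratios on the other side of 1 at 8 h than at 0 h in this direction were found for 26% of all genes tested, and with DESeq2 size factors Spred1 was the only 1 of these 5 genes above 1 at 8 h. From 4 to 8 h Etv4 went to 107% of its 4 h level in R255K and to 95.9% in WT, a difference that was not tested either.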

How the results depend on the processing

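With 1 library per genotype and time, no replicate could be left out, and half-lives were recomputed from 1 time point instead. No paired analysis was possible because the replicate numbers of the IP and input libraries are pooled in 1 peak list per genotype and each actinomycin D group is 1 library. The number of members under 1/2 of WT at 0 h, 1 as reported, was 2 with TMM factors, 3 with DESeq2 size factors, 3 with ribosomal protein genes and 0 with Gapdh as the reference, under which 5 were over 2 times WT. After the GC correction it was again 1, but Dusp6 (0.494) in place of Spred1 (0.607). Members with a half-life ratio over 1.5 numbered 2 as reported, 1 with DESeq2 size factors, 4 with ribosomal protein genes and 0 with Gapdh. The median half-life ratio, 1.32, was 1.14 with TMM factors, 1.07 with DESeq2 size factors, 1.60 with ribosomal protein genes, 1.22 from the 4 h library alone and 0.649 with Gapdh. Gapdh also put above 1 the 0 h ratios of all 6 genes that were below WT, from 1.03 (Spred1) to 2.56 (Fgf4), and below 1 the 4 h ratios of shares left of all 6 genes that were above it, with 0.487 for Spred1, 0.360 for Dusp6, 0.217 for Spry4, 0.169 for Fgf4, 0.162 for Fgfr1 and 0.155 for Spry2. Its own counts ran from 242 to 2357 over the libraries, and it moved the median 0 h log2 ratio of all genes from 0.06 to 1.49. WT peaks without an R255K peak numbered 2 of 11 as reported, 5 of 11 when 50% of the peak had to be covered, and 5 of 9 with a fold enrichment of at least 4 in both lists. The numbers with under 50% left at 4 h stayed between 5 and 7 under the alternatives tried. No half-life ratio could be had for Fgfr1 with DESeq2 size factors or Gapdh. In alternatives chosen after seeing the data, the number of genes below WT at 0 h and above it at 8 h, 5 as reported, was 3 with TMM factors, 1 with DESeq2 size factors and 0 with Gapdh, and the number with a share left at 8 h over 1.5 times higher in R255K, also 5, was 2 with each of them. The GC corrections of gene pairs were added in the same way. Causes of these shifts were not tested.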
